A study of Homo sapiens with 18 samples.

Results

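The mesenchymal derivatives of HCC827 and A549, which are human lung adenocarcinoma cell lines, were compared with each other across all genes. The comparison took the 3 arrays whose titles end in HCC827.EMT and the 3 whose titles end in A549.EMT, 6 of the 18 arrays of the series. It asked which differences between the lines remained in the mesenchymal state, which vanished there and which arose, so the 3 parental HCC827 and 3 parental A549 arrays served as the other state. The other 6 arrays were of NCI-H358, a further lung cancer line with both states. HCC827 is driven by mutant EGFR, and A549 is not. All groups were grown in RPMI medium with serum and glutamine. The mesenchymal groups had in addition received TGFβ at 2 ng/ml for 3 weeks by the labels, and all TGFβ was withdrawn the day before lysis. The methods give a longer range of weeks for HCC827 than for A549, so time on TGFβ and cell line cannot be told apart. The derivatives were treated cultures of the whole line and not selected clones, as far as the methods describe them. The labels do not say whether the 3 arrays of a group came from separate cultures, while the study describes its array samples as separate biological ones made at the same time. The p-values therefore measure the spread between these arrays only.

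Epithelial-mesenchymal transition (EMT) is a program in which epithelial cells lose their cell-to-cell junctions and take up a motile, matrix-producing state. TGFβ starts it through receptor kinases and SMAD proteins, which switch on transcription factors of the ZEB and SNAI families. These factors repress epithelial genes such as CDH1 by binding E-box sequences near their start sites.

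Levels are log2 values of RMA-normalized arrays with 1 probe set per gene, so a difference of 1 is a 2-fold change, and levels of different genes are not set against each other. A gene was called when its limma adjusted p was below 1e-05 and its fold change above 5. Arrays of the same mesenchymal group differed over all genes with a standard deviation of 0.163 to 0.236, whereas a mesenchymal HCC827 and a mesenchymal A549 array differed with one of 1.05 to 1.06. The median level of the 6 mesenchymal arrays lay between 6.31 and 6.42. With 3 arrays a group, the smallest two-sided p that exact permutation allows is 0.1, so all tests given are those of the limma fit over all genes. RMA compresses differences at low signal, so a fold change against a dim probe set is likely to be understated.

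The labels were checked against markers. KRT18 and KRT8, keratins of simple epithelia, read 12.5 to 13.7 and 10.7 to 12.1 on the 6 mesenchymal arrays. EPCAM and CDH1, also of the 6 markers of epithelial origin, were low in mesenchymal A549, at 4.55 to 4.59 and 3.27 to 3.76. CDH2, the N-cadherin of mesenchymal cells, was higher in mesenchymal than in parental cells by 3.26 in HCC827 and by 1.94 in A549. FN1, the matrix protein fibronectin, was higher by 3.98 and 3.11, and ZEB1 by 4.18 and 0.79. CDH1, the E-cadherin of epithelial junctions, was lower by 2.95 in HCC827 and by 5.81 in A549. VIM, an intermediate filament protein, was read by a probe set of low signal, at 5.47 to 5.71 in mesenchymal HCC827 and 6.27 to 6.43 in mesenchymal A549, and other probe sets of VIM were not analysed here. Of 20 markers of blood, vessel and fibroblast cells, 2 were called between the mesenchymal lines, LUM and COL3A1, which are matrix genes, while PTPRC, the general leukocyte marker, read 2.97 and 2.95 on average and DCN, a fibroblast proteoglycan, 5.27 and 5.26. The mean of the 20 markers per array was 5.11 to 5.13 in A549 and 5.59 to 5.70 in HCC827, with LUM and COL3A1 included, and its part in the results was not tested. In RNA from whole cultures, fewer cells of a kind and less RNA per cell cannot be told apart.

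In mesenchymal cells 895 of 19849 genes were called between the lines (4.51%), 468 higher in HCC827 (2.36%) and 427 lower (2.15%). In parental cells the count was 1023 (5.15%), with 618 higher in HCC827 (3.11%) and 405 lower (2.04%). Counts of called list members given below are to be read beside these shares of all genes. The 2 states share no array. Across the 19849 genes, which are not independent, the mesenchymal difference and the parental difference correlated with Pearson's r = 0.687 and Spearman's rho = 0.596. The difference itself changed between the states in 8379 genes at a limma adjusted p below 0.05 (42.2%), 4510 shifting upwards in HCC827 relative to A549 (22.7%) and 3869 downwards (19.5%). In 579 of them that change was above 5-fold with an adjusted p below 1e-05 (2.92%).

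Each called gene was then placed in a class. Differences called in both states in the same direction remained in 487 genes (2.45% of all genes), which are 47.6% of the genes called in parental cells and 54.4% of those called in mesenchymal cells. A difference was taken to have vanished when it was called in parental cells, its 95% interval in mesenchymal cells lay within 2-fold either way, and the states differed by their own test. This held for 183 genes (0.922%). By the mirror rule, 144 differences arose in mesenchymal cells (0.725%). Only 5 genes were called in opposite directions (0.0252%). Undecided were 348 genes called in parental cells (1.75%) and 259 called in mesenchymal cells (1.3%), of which 330 and 238 did change in size by the test between states without meeting the interval. The scatter of both differences shows these classes.

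**Figure D1:**
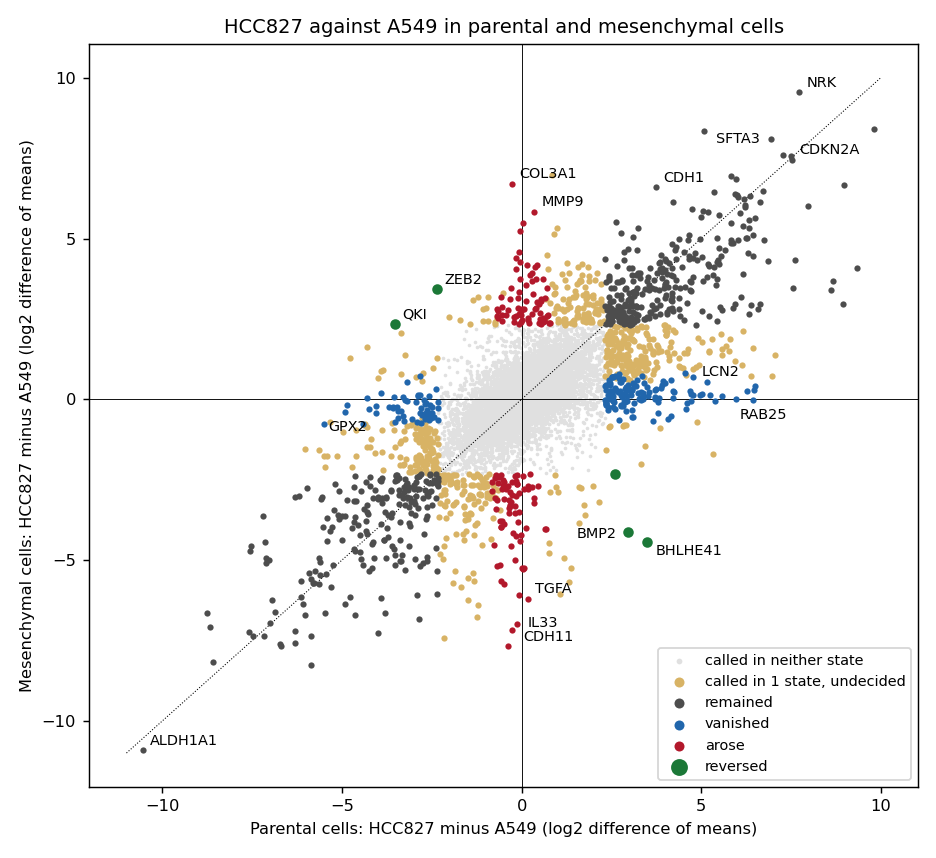
Each point is a gene, with its HCC827-minus-A549 difference (log2) in parental cells on the horizontal axis and in mesenchymal cells on the vertical axis; colours give the class. The 487 differences that remained lie along the dotted line of equal difference, the 183 that vanished lie near the horizontal line, the 144 that arose near the vertical line, and the 5 reversed genes in the opposite quadrants.

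The largest differences between the mesenchymal lines had mostly been there before. ALDH1A1, an aldehyde dehydrogenase of retinoic acid synthesis, read 14.29, 14.22 and 14.22 in mesenchymal A549 and 3.42, 3.19 and 3.38 in mesenchymal HCC827. Every A549 array was near the top of the scale and every HCC827 array near its floor. The difference was -10.91 (standard error 0.10, limma adjusted p = 6.84e-20), against -10.55 in parental cells, and the change between states did not pass its test (adjusted p = 0.0577). NRK, a kinase of the germinal center kinase family, read 12.55, 12.51 and 12.54 in mesenchymal HCC827 and 3.08, 2.88 and 2.97 in mesenchymal A549. Its difference of 9.55 (standard error 0.16, limma adjusted p = 2.09e-17), a 752-fold one, was wider than the parental 7.74. QPCT, a glutaminyl cyclase, was lower in HCC827 by 8.27 after 5.86 in parental cells, RSPO3, a WNT-enhancing ligand, by 8.15 after 8.59, NRCAM, a neuronal adhesion molecule, by 7.67 after 6.69, and LXN, a carboxypeptidase inhibitor, by 7.60 after 6.73. On the other side stood TOX3, a chromatin protein, at 8.36, SFTA3, a lung surfactant-associated gene, at 8.10, and LY96, the partner of a toll-like receptor, at 7.59. Of the 5 lowest mesenchymal differences, only that of LCE3D had no parental counterpart.

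Among the 487 genes whose difference remained, 275 were higher and 212 lower in HCC827. Their median size was 3.62 on the log2 scale in mesenchymal cells and 3.90 in parental cells. By the test between states 110 were wider in mesenchymal cells, 189 narrower and 188 could not be distinguished in width. In 410 of the 487 neither line was called as changed between its own parental and mesenchymal cells. In 261 the line with the lower mesenchymal level had a mean under 4.67, the 25th percentile of all levels, so these differences were of a line with signal against a line at low signal.

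Of 14 listed genes with known lesions in lung cancer lines, 6 had a difference that remained, beside 2.45% of all genes. Whether a lesion underlies each difference was not tested. CDKN2A, the tumour suppressor p16, is known to be deleted in A549 together with its neighbours CDKN2B and MTAP. It read 10.59, 10.58 and 10.78 in mesenchymal HCC827 and 2.93, 3.55 and 3.12 in mesenchymal A549. The arrays of the lines were far apart, by 7.45 (standard error 0.18, limma adjusted p = 9.3e-16), after 7.54 in parental cells. CDKN2B differed by 6.37 and MTAP, a methionine salvage enzyme, by 5.03. SMARCA4, a chromatin remodelling ATPase, differed by 4.24, CDK4, a cell cycle kinase, by 2.90 and EGFR by 2.67. All 6 were higher in HCC827 in both states. MDM2, which degrades p53, was lower in HCC827 by 2.41 in mesenchymal cells and by 1.0, not called, in parental cells. In all, 7 of the 14 genes of this list were called in mesenchymal cells, 6 higher and 1 lower.

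Targets of NRF2, the transcription factor of the oxidative stress response, were lower in HCC827 in both states. NRF2 is known to be active without stress in A549, which carries a KEAP1 mutation. In mesenchymal cells 10 of 34 listed targets were called lower and 0 higher, with a median difference of -1.42, against 13 lower, 0 higher and -1.94 in parental cells. By the test between states the difference shifted upwards in 18 and downwards in 9, beside 22.7% and 19.5% of all genes. Of the 13 parental calls 10 were narrower, beside 704 of 1023 (68.8%) of all genes called in parental cells. Levels were lower in mesenchymal than in parental cells for 32 of 34 members in A549 (median -1.11) and 25 of 34 in HCC827 (median -0.38). Single members went either way. AKR1B10, an aldo-keto reductase, read 11.36, 11.28 and 11.37 in mesenchymal A549 and 5.29, 4.70 and 4.05 in mesenchymal HCC827. The HCC827 arrays were low and spread over more than 1 log2 unit. The difference was -6.66 (standard error 0.21, limma adjusted p = 4.5e-14), after -5.46 in parental cells. AKR1C1, AKR1C2 and AKR1C3 differed by -4.98, -5.09 and -5.14, and since these genes are near-identical copies the separate values are uncertain. NR0B1, a nuclear receptor, differed by -3.04. NQO1, a quinone reductase, differed by -3.76 after -1.58, and ABCC3, a drug efflux pump, had its difference of -2.80 arise in mesenchymal cells. GPX2, a glutathione peroxidase, had the only difference in the list that vanished, from -4.05 to -0.42. Its level fell by 5.42 in A549, and in HCC827 it was lower by 1.80, under the 5-fold threshold.

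Interferon-stimulated genes ran the other way. Of 44 listed genes, 12 were called higher in mesenchymal HCC827 and 0 lower, with a median difference of 1.49, after 23 higher, 0 lower and 2.46 in parental cells. All 12 were among those that remained. In 31 of the 44 the difference shifted downwards between the states and in 7 upwards, beside 19.5% and 22.7% of all genes. IFI44, an interferon-induced cytoplasmic protein, read 9.41, 9.51 and 9.42 in mesenchymal HCC827 and 5.02, 4.88 and 5.06 in mesenchymal A549. Both groups were tight and well apart, by 4.46 (standard error 0.10, limma adjusted p = 4.09e-16). GBP1, an interferon-induced GTPase, differed by 4.96, IFI44L by 4.95 and IFIH1, a sensor of viral RNA, by 4.01. ISG15, a ubiquitin-like modifier, was called in parental cells at 3.76 and stood at 1.69 in mesenchymal cells. PSMB9 and PSMB8, subunits of the immunoproteasome, were higher in mesenchymal HCC827 by 3.31 and 3.10, and of 27 antigen presentation genes 3 were called higher and 0 lower.

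The lung lineage genes split as well. NKX2-1, the lineage factor of the lung, read 9.46, 9.6 and 9.85 in mesenchymal HCC827 and 4.02, 3.47 and 4.21 in mesenchymal A549. The groups did not overlap, and the difference of 5.74 (standard error 0.19, limma adjusted p = 5.22e-14) was close to the parental 5.51. SFTA3, which lies beside NKX2-1, has been given above. HNF4G, a nuclear receptor, stayed higher in HCC827 by 4.21, and FOXA2, a forkhead factor of foregut cells, stayed lower by 3.08. NAPSA, an aspartic protease of alveolar cells and a marker of lung adenocarcinoma, read 11.26, 10.76 and 10.60 in parental HCC827 but 6.31, 6.19 and 5.99 in mesenchymal HCC827. The mesenchymal A549 arrays read 5.88, 6.14 and 6.07 and overlapped with these. The parental difference of 4.96 had vanished, with a mesenchymal value of 0.13 (95% interval -0.14 to 0.41). Of 30 listed lineage genes 4 were called higher and 1 lower in mesenchymal cells (16.7%, beside 4.51% of all genes).

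Of the 1023 differences called in parental cells, 704 (68.8%) were narrower in mesenchymal cells by the test between states. Of the 25 among epithelial junction and identity genes 22 (88.0%) were. Choosing genes by a large parental difference favours narrowing, because the test subtracts that same difference. Among the 487 that remained, 110 were wider and 189 narrower. Choosing genes by a large mesenchymal difference favours widening in the same way. Of those called only in mesenchymal cells, 238 of the 259 undecided ones were wider. All 144 that arose were wider too, which the rule of their class fixes in advance. The shares of narrower differences therefore do not show by themselves that the lines converged. Of 46 listed epithelial genes, 25 were called higher in parental HCC827 and 0 lower, with a median difference of 2.59. In mesenchymal cells 8 were called higher and 0 lower, with a median of 0.49. The difference shifted downwards in 37 of the 46 by the test between states and upwards in 5, beside 19.5% and 22.7% of all genes. The median change between states over the list was -2.60 in HCC827, where 25 members fell and 1 rose by the call rule (2.95% of all genes changed either way). In A549 it was -0.08, where 3 fell and 0 rose (1.9% of all genes). The median level over the list had been 9.29 in parental HCC827 and only 6.20 in parental A549. Whether low signal in A549 limited its falls was not tested.

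**Figure D2:**
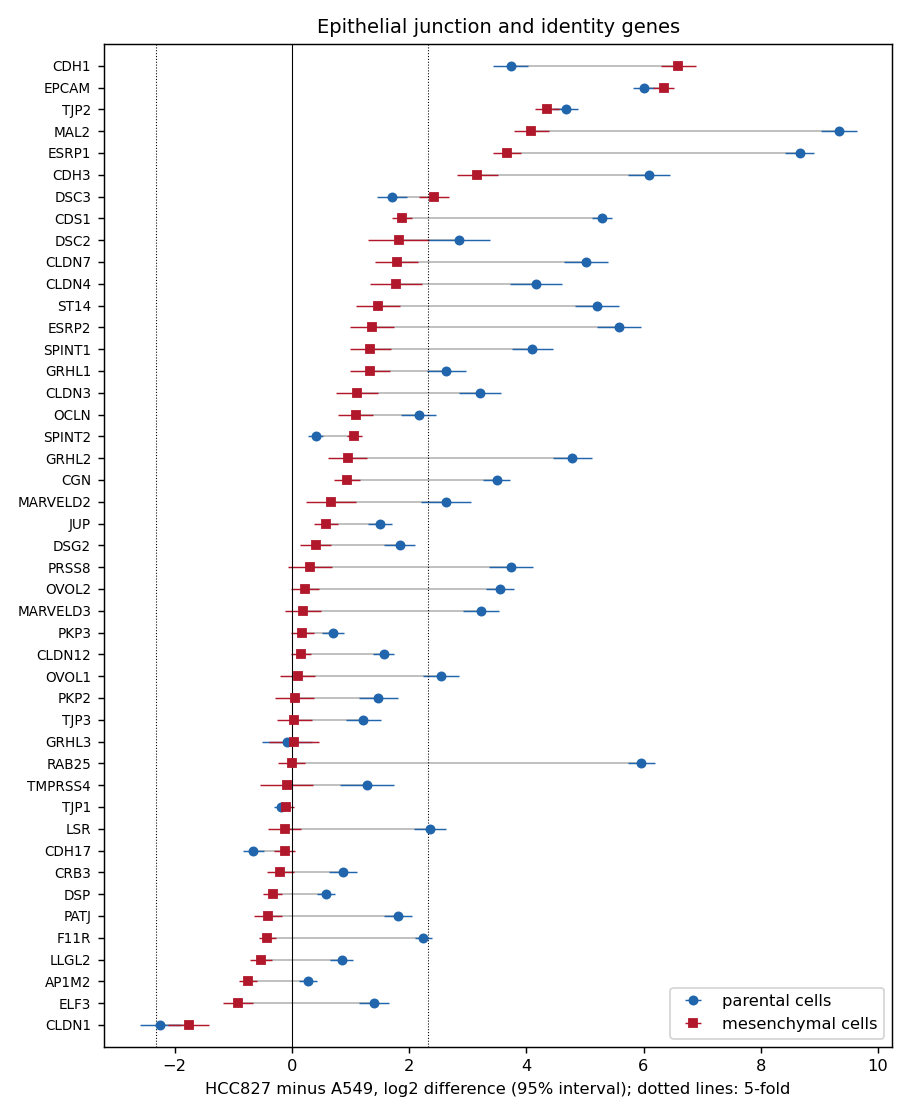
The HCC827-minus-A549 difference (log2, with its 95% interval) of 45 of the 46 epithelial genes in parental cells (circles) and mesenchymal cells (squares); dotted lines mark 5-fold. Most squares lie to the left of their circles, whereas CDH1 and EPCAM have squares above 6 and the square of CDH1 lies to the right of its circle.

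The epithelial members did not lose their difference alike. RAB25, a small GTPase of epithelial membrane traffic, read 10.94, 10.46 and 10.56 in parental HCC827 and 5.05, 5.01 and 5.20 in mesenchymal HCC827. Mesenchymal A549 read 4.95, 5.06 and 5.27, so the lines overlapped. The difference went from 5.96 to a value whose 95% interval was -0.24 to 0.23, and the change between states was -5.97 (limma adjusted p = 7.68e-14). OVOL1 and OVOL2, zinc finger factors that hold cells epithelial, LSR and MARVELD3, of tricellular and tight junctions, and PRSS8, a membrane protease, were the other members whose difference vanished. ESRP1, the epithelial splicing regulator, narrowed from 8.66 to 3.67 and MAL2, a protein of apical transport, from 9.33 to 4.09, and both were still called. GRHL2, a factor that maintains epithelial genes, narrowed from 4.79 to 0.95 and CLDN7, a tight junction claudin, from 5.02 to 1.79.

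CDH1 went the other way. In mesenchymal HCC827 it read 10.50, 9.89 and 9.93, and in mesenchymal A549 3.27, 3.51 and 3.76. All HCC827 arrays were high and all A549 arrays low. The difference was 6.6 (standard error 0.14, limma adjusted p = 2.92e-16), a 96.8-fold one, and it was wider than the parental 3.73 by 2.86 (adjusted p = 5.01e-09). EPCAM, an epithelial adhesion molecule, read 11.07, 10.79 and 10.89 against 4.59, 4.57 and 4.55, again without overlap. Its difference of 6.34 exceeded the parental 6.00 by 0.34 (adjusted p = 0.0318). KRT19, a keratin of simple epithelia, differed by 3.64 after 4.02. KRT7, KRT8 and KRT18 were lower in mesenchymal HCC827 by 1.71, 1.30 and 1.11, under the 5-fold threshold, with parental differences of -0.01, 0.15 and 0.05. KRT81 was lower in HCC827 by 7.36, a value that may include signal of near-identical hair keratin genes.

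E-boxes of the letters CACCTG, the core that ZEB and SNAI factors are known to bind, were searched on both strands in the 250 bases before each start in the RefSeq promoter table (GRCh38.p14). Other motifs were not searched. At least 1 match was found in 17.5% of 35116 promoters and for 20.6% of 27305 genes. Of the 46 epithelial genes 25 had an entry, and 16 of these 25 (64.0%) held a match. Among members called in either state it was 5 of 12 (41.7%). A match describes the letters and not a bound site. The 250 bases before the start are shown for RAB25, whose difference vanished (chr1:156060910-156061159, plus strand), and for a start of CLDN7, whose difference narrowed (chr17:7262479-7262728, minus strand), with the matches in capitals. The match of RAB25 begins 41 bases before the start, and those of CLDN7 begin 174, 135, 20 and 9 bases before it. The other start of CLDN7 in the table held 0, as did that of LSR, whose difference also vanished, so the promoters shown were chosen for holding a match. CDH1, EPCAM and ESRP1 had no entry.
RAB25: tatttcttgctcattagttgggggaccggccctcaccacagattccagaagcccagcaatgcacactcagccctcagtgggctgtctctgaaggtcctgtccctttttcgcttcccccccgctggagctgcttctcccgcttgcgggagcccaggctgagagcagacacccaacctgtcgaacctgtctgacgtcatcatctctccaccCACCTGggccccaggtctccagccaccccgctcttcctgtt
CLDN7: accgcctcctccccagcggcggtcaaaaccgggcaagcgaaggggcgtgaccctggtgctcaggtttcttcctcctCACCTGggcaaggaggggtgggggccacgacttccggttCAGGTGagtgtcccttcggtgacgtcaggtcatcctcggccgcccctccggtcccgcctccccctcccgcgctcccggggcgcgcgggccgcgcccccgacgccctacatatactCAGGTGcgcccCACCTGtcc

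The transcription factors of EMT became alike in some members and unlike in others. ZEB1 read 5.83, 6.15 and 6.07 in parental HCC827 and 9.23, 9.36 and 9.40 in parental A549, but 10.23, 10.19 and 10.19 in mesenchymal HCC827 and 10.11, 10.13 and 10.12 in mesenchymal A549. The 6 mesenchymal arrays all lay between 10.11 and 10.23. The parental difference of -3.31 had vanished, at 0.08 in mesenchymal cells (95% interval -0.16 to 0.33). ZEB2, its relative, read 7.97, 8.14 and 8.03 in mesenchymal HCC827 and 4.55, 4.80 and 4.55 in mesenchymal A549. The higher line was now HCC827, by 3.42 (standard error 0.11, limma adjusted p = 6.89e-14), where it had been the lower one by 2.36. HMGA2, a chromatin protein induced by TGFβ, was higher in mesenchymal HCC827 by 3.12, while SNAI1 differed by 0.14 (95% interval -0.12 to 0.40) and SNAI2 by 0.99. KLF8 and SOX4 had differences that vanished, from 3.89 to 0.36 and from 2.33 to 0.40. Of 17 listed factors 2 were called in mesenchymal cells, both higher, against 3 higher and 3 lower in parental cells.

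Mesenchymal and contractile genes were divided between the lines, with 5 of 30 called higher and 6 lower in mesenchymal HCC827. CDH11, a cadherin of mesenchymal cells, read 10.65, 10.46 and 10.66 in mesenchymal A549 and 3.41, 3.29 and 3.56 in mesenchymal HCC827. Only A549 had the signal, and the difference of -7.17 (standard error 0.11, limma adjusted p = 9.57e-18) stood against -0.27 in parental cells. POSTN, the matrix protein periostin, arose likewise at -4.21. CDH2 stayed lower in HCC827, by 3.97 after 5.29, and ACTA2, smooth muscle actin, was lower by 3.02 after 1.39. FBN1, a microfibril protein, arose as higher in HCC827 by 2.55, and TNC, the matrix glycoprotein tenascin C, stayed higher by 3.45 after 7.55. TPM1, a tropomyosin, had a difference that vanished, from -2.56 to -0.66. FN1 differed by 0.35 (95% interval -0.08 to 0.79) in mesenchymal cells.

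Among collagens 4 differences arose, all with the higher level in HCC827. COL3A1, the fibrillar collagen III, read 12.98, 13.01 and 13.31 in mesenchymal HCC827 and 6.23, 6.36 and 6.59 in mesenchymal A549. In parental cells the arrays had read 4.49, 4.01 and 4.58 in HCC827 and 4.68, 4.72 and 4.51 in A549, with the ranges overlapping. The mesenchymal difference was 6.71 (standard error 0.13, limma adjusted p = 1.11e-16), a 104-fold one. COL10A1, a short-chain collagen, arose at 5.25 with HCC827 arrays at 7.62, 8.15 and 8.85 and A549 arrays at 2.94, 2.78 and 3.16. COL6A3 and COL6A2, chains of the microfibrillar collagen VI, arose at 3.04 and 2.73, and COL6A1 was called at 3.18 after -0.94. COL1A1, the main chain of collagen I, was high in both lines and differed by 0.74. COL11A1 was lower in mesenchymal HCC827 by 5.84, COL5A2 by 7.19 and COL4A6, a basement membrane chain, by 4.18. COL5A1, which had been lower in parental HCC827 by 3.85, differed by 0.92. In all, 5 of 32 collagen chains were called higher and 3 lower. The difference shifted upwards in 16 and downwards in 6, beside 22.7% and 19.5% of all genes.

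Proteases and receptors of the matrix followed no common direction. MMP9, gelatinase B, read 11.81, 11.77 and 12.38 in mesenchymal HCC827 and 5.92, 6.09 and 6.45 in mesenchymal A549. The groups were far apart, by 5.83 (standard error 0.15, limma adjusted p = 1.96e-15), after 0.36 in parental cells. MMP16, a membrane-type metalloproteinase, arose in the opposite direction at -4.99. ITGA5, the fibronectin receptor subunit, arose as higher in HCC827 by 2.51, whereas ITGA1 and ITGA11, subunits of collagen receptors, arose as lower by 4.03 and 3.11. The integrin and laminin list had 4 of 32 members called higher and 3 lower (21.9%). The protease list had 2 of 32 in each direction (12.5%), beside 4.51% of all genes called.

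The plot of single arrays shows several of these genes with those described next.

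**Figure D3:**
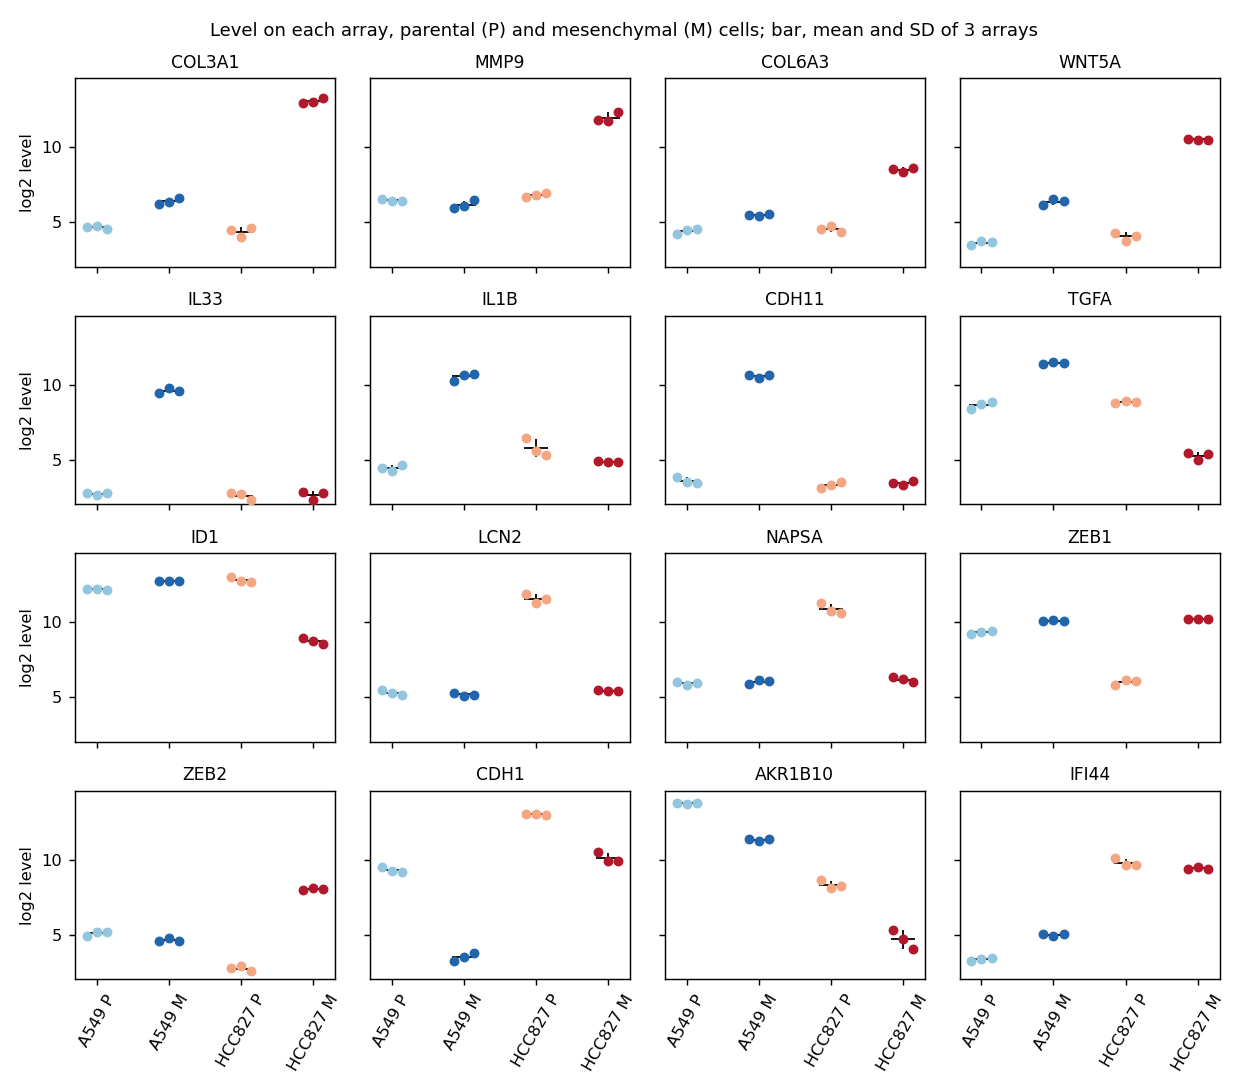
Log2 level of 16 genes on each array (points) in parental (P) and mesenchymal (M) cells of A549 and HCC827, with bars for the mean and SD of 3 arrays. COL3A1, MMP9, COL6A3 and WNT5A are high only in mesenchymal HCC827, IL33, IL1B and CDH11 only in mesenchymal A549, ID1 and TGFA are lowest in mesenchymal HCC827, and LCN2 and NAPSA are high only in parental HCC827.

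Most called cytokines were higher in mesenchymal A549. IL33, an alarmin of the interleukin-1 family, read 9.48, 9.78 and 9.58 in mesenchymal A549 and 2.84, 2.30 and 2.76 in mesenchymal HCC827. The HCC827 arrays were at the floor of the scale, as both parental groups had been. Its difference of -6.98 (standard error 0.17, limma adjusted p = 1.2e-15) stood against -0.12 in parental cells. IL1B read 10.27, 10.68 and 10.71 in A549 against 4.89, 4.87 and 4.84 in HCC827, again without overlap. IL1B differed by -5.69, CXCL8, a neutrophil chemokine, by -4.94, IL1A by -4.79, IL6 by -3.28 and CXCL1 by -2.72. All 5 had been higher in parental HCC827, by 0.76 to 1.74 and below the fold threshold, so their directions changed although they do not count as reversed. IL6 had the largest of those parental differences and IL1A the smallest. CCL2, a monocyte chemokine, stayed lower in HCC827 by 4.00, and CXCL6 stayed higher by 4.67 after 2.95. Of 34 listed genes, 2 were called higher and 8 lower in mesenchymal HCC827, against 4 higher and 2 lower in parental cells. Between states 8 members rose in A549 and 0 fell, while 3 rose and 4 fell in HCC827. Of all genes 1.9% changed either way in A549 and 2.95% in HCC827.

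In the TGFβ, activin and BMP pathway the difference shifted upwards in 18 of 48 genes and downwards in 16, beside 22.7% and 19.5% of all genes. ID1, an inhibitor of differentiation factors and a BMP target, read 12.78, 12.77 and 12.77 in mesenchymal A549 and 8.94, 8.77 and 8.53 in mesenchymal HCC827. Both parental groups had been above 12, and only mesenchymal HCC827 was low. The difference was -4.03 (standard error 0.10, limma adjusted p = 9.3e-16), after 0.64 in parental cells. ID3 arose at -4.52 and ID4 was called at -2.68 after 1.98. Among the ligands, BMP2 read 11.06, 11.10 and 11 in mesenchymal A549 and 6.71, 6.91 and 7.16 in mesenchymal HCC827. It had been 7.28, 6.79 and 6.83 in parental HCC827 and 3.93, 4.40 and 3.70 in parental A549, so A549 went from the lower to the higher line. BMP6 was lower in mesenchymal HCC827 by 4.81. TGFB2, a TGFβ ligand, arose as higher in HCC827 by 2.83. Among the inhibitors, GREM1, which binds BMPs, stayed lower in HCC827 by 7.26 after 3.99, and FST, which binds activin, by 2.82 after 3.63. PMEPA1, a TGFβ target, read 13.18, 13.16 and 13.30 in mesenchymal HCC827 and 13.26, 13.26 and 13.18 in mesenchymal A549, and its parental difference of -3.25 had vanished. SMAD7, the inhibitory SMAD, differed by 0.27. Of these 48 genes, 1 was called higher and 7 lower in mesenchymal HCC827, against 2 higher and 4 lower in parental cells.

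Among ERBB ligands, TGFA, a ligand of EGFR, read 11.41, 11.53 and 11.45 in mesenchymal A549 and 5.43, 4.97 and 5.38 in mesenchymal HCC827. The parental arrays had all lain between 8.38 and 8.91 and overlapped. The lines moved apart, by 2.80 upwards in A549 and by 3.58 downwards in HCC827, to a difference of -6.20 (standard error 0.14, limma adjusted p = 6.07e-16). NRG1, a ligand of ERBB3, arose at -3.49. AREG and EREG, other EGFR ligands, differed by 2.13 and 0.62. Among the receptors, EGFR read 12, 12.01 and 12.08 in mesenchymal HCC827 and 9.33, 9.44 and 9.32 in mesenchymal A549. It remained higher in HCC827 by 2.67 (standard error 0.08, limma adjusted p = 1.23e-14), narrower than the parental 3.59. ERBB3 narrowed from 4.58 to 0.74. ERRFI1, a feedback inhibitor of EGFR, was called at 2.82 after 1.58. Of 16 listed genes, 2 were called higher and 2 lower in mesenchymal cells.

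Downstream of these receptors, EGR1 and SPRY1, targets of MAPK signalling, had differences that vanished, from 5.16 to 0.52 and from 2.96 to 0.45, and KCNN4, a potassium channel, had one that arose at 2.51. Of 22 MAPK output genes 2 were called higher and 0 lower (9.09%, beside 4.51% of all genes). Among other receptor tyrosine kinases, AXL, a receptor known from drug-resistant mesenchymal cells, read 10.28, 10.33 and 10.36 in mesenchymal A549 and 6.32, 6.30 and 6.95 in mesenchymal HCC827. The lines did not overlap, and the difference of -3.80 (standard error 0.14, limma adjusted p = 3.26e-13) followed -4.66 in parental cells. RET and EPHB1 arose at -3.14 and -2.91, and 1 of 33 receptors was called higher and 3 lower (12.1%).

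Secretory genes of epithelia had 4 of the 183 differences that vanished. LCN2, a siderophore-binding lipocalin, read 11.88, 11.29 and 11.54 in parental HCC827 and 5.45, 5.44 and 5.43 in mesenchymal HCC827. Mesenchymal A549 read 5.28, 5.08 and 5.16, just below. The difference went from 6.27 to 0.26, a change of -6.01 (limma adjusted p = 1.41e-13). TSPAN8, a tetraspanin of digestive epithelia, went from 6.44 to -0.02, PIGR, the receptor that carries antibodies across epithelia, from 3.12 to -0.12 and MUC4, a membrane mucin, from 4.25 to 0.23. MUC1 went from 4.89 to -0.70. Of 28 mucin and secretory genes 10 were called higher in parental HCC827 and 1, SCEL, in mesenchymal HCC827. Outside the lists, MPZL2, an epithelial adhesion molecule, went from 6.50 to 0.41 and SHOC1, a meiotic gene, from 6.48 to 0.28.

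Of the 126 differences in favour of HCC827 that vanished, the larger change was a fall in HCC827 in 112 and a rise in A549 in 14. In 61 of them both mesenchymal lines were under the 25th percentile of levels, where a remaining difference would be hard to see. Of the 57 that vanished with A549 as the higher line, a rise in HCC827 was the larger change in 31 and a fall in A549 in 26. DCDC2, a microtubule-binding protein, went from -5.49 to -0.77 as its level in A549 fell by 4.99. NTS, the peptide neurotensin, went from -4.91 to -0.38, IGSF11, an adhesion molecule, from -4.85 to -0.16 and PDE1C, a phosphodiesterase, from -4.32 to 0.05, each with a fall in A549. EML1, a microtubule-associated protein, came together at high levels instead, at 9.73, 9.70 and 9.71 in mesenchymal A549 and 8.91, 9.04 and 8.90 in mesenchymal HCC827. A difference of -0.77 (limma adjusted p = 1.13e-06) was left of the parental -4.40.

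Differences that arose were divided evenly, 71 higher and 73 lower in HCC827. For the 71 the larger change was a rise in HCC827 in 49 and a fall in A549 in 22, and for the 73 it was a rise in A549 in 53 and a fall in HCC827 in 20. In 52 of the 144 both parental lines had been under the 25th percentile of levels. The largest in favour of A549 was LCE3D, a gene of the skin's cornified envelope, at 12.31, 12.67 and 12.57 in mesenchymal A549 and 4.93, 4.73 and 4.84 in mesenchymal HCC827. No array of the other line came near, and the difference of -7.68 (standard error 0.13, limma adjusted p = 1.25e-17) followed -0.37 in parental cells. VIP, a neuropeptide, arose at -6.10. In favour of HCC827, GPR183, a receptor for oxysterols, arose at 5.48 and APCDD1L-DT, a noncoding RNA, at 4.58. These changes between states share arrays with the mesenchymal difference, so they describe which line moved and are no separate evidence.

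**Figure D4:**
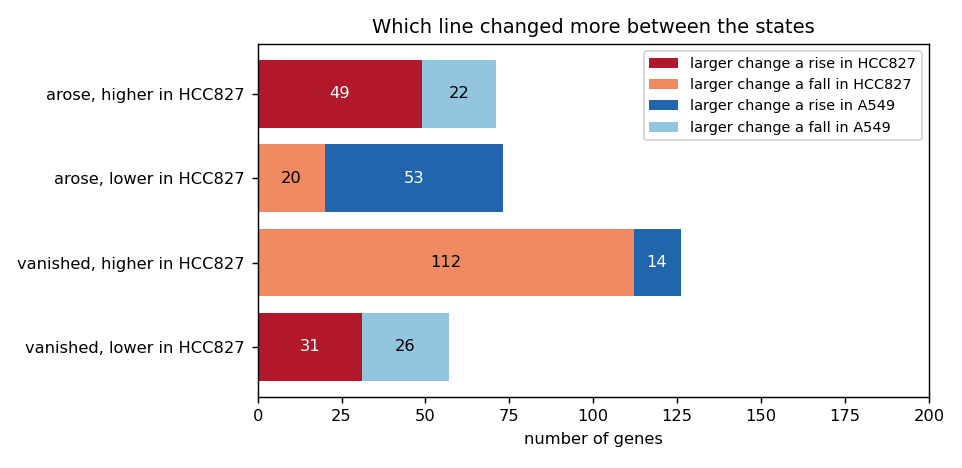
Number of genes whose difference arose or vanished, by which line had the larger change between parental and mesenchymal cells and in which direction. A fall in HCC827 was the larger change in 112 of the 126 differences in favour of HCC827 that vanished, and a rise in A549 in 53 of the 73 that arose in favour of A549.

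Besides ZEB2 and BMP2, 3 genes reversed. BHLHE41, a transcriptional repressor of the circadian clock, read 9.96, 10.30 and 10.28 in mesenchymal A549 and 5.60, 5.49 and 6.12 in mesenchymal HCC827, whereas parental A549 had been at 3.85 and parental HCC827 at 7.34 on average. The order of the lines turned completely, from 3.49 to -4.44, and the change of -7.93 (limma adjusted p = 8.02e-14) was the largest of the 5. PIK3AP1, an adaptor of PI3K, went from 2.61 to -2.34. QKI, an RNA-binding regulator of splicing and circular RNAs, read 8.57, 8.61 and 8.64 in mesenchymal HCC827 and 6.34, 6.06 and 6.39 in mesenchymal A549. It rose by 3.39 in HCC827 and fell by 2.49 in A549, so that a difference of -3.53 became 2.35. MYO1D, a myosin motor, also changed sides, from 3.34 to -2.01, but its mesenchymal difference was under 5-fold. PIK3AP1 and QKI stand close to that threshold, and without the second mesenchymal A549 array, at -2.32 and 2.24, they were no longer called and 3 genes were left as reversed. Without the first mesenchymal HCC827 array PIK3AP1 was at -2.29, and QKI was at 2.29 after centring the arrays and 2.28 after quantile normalization, with 4 genes left as reversed in each case.

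Cell cycle genes shifted together although only 1 of 41 was called in mesenchymal cells. In 40 of the 41 the difference shifted upwards in HCC827 by the test between states, and in 0 downwards, beside 22.7% and 19.5% of all genes. The median difference went from -0.55 in parental cells to 0.60 in mesenchymal cells. At an adjusted p below 0.05 with no threshold on the fold, 30 members were lower in parental HCC827 and 5 higher, where 29.8% and 27.2% of all genes were. In mesenchymal HCC827 28 members were higher and 5 lower, beside 28.3% of all genes in each direction. The level was lower in mesenchymal than in parental A549 in 39 of 41, with a median of -0.70. In HCC827 it was higher in mesenchymal than in parental cells in 37 of 41, with a median of 0.44. No member passed the 5-fold call within a line. The study reports that TGFβ-treated cells grew more slowly than parental ones, so these RNA levels are not to be read as growth rates. KIF2C, a kinesin of the mitotic spindle, read 9.87, 9.80 and 9.91 in mesenchymal HCC827 and 7.17, 7.63 and 7.49 in mesenchymal A549. The HCC827 arrays were all higher, by 2.43 (standard error 0.09, limma adjusted p = 2.82e-13), after 1.03 in parental cells. BIRC5, the mitotic protein survivin, had a parental difference of -2.78 that shrank to -0.47. MKI67, the proliferation marker, was chosen after values were seen and went from -0.95 to 0.78. CCNE1, a G1 cyclin, was the member without a detectable change, at -1.44 and -1.30 (adjusted p = 0.61).

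Growth factor and patterning pathways completed the lists. WNT5A, a noncanonical WNT ligand, read 10.58, 10.50 and 10.49 in mesenchymal HCC827 and 6.12, 6.55 and 6.41 in mesenchymal A549. Both were above the parental levels, HCC827 by 6.48 and A549 by 2.74, and the difference of 4.16 (standard error 0.13, limma adjusted p = 2.97e-14) followed 0.43. SFRP1, a secreted WNT antagonist, stayed lower in HCC827 by 6.36. Of 43 WNT pathway genes 2 were called higher and 3 lower (11.6%, beside 4.51% of all genes). In the IGF axis IGFBP7, a secreted binding protein, stayed lower in HCC827 by 6.66 after 8.74 and PAPPA, which cleaves such proteins, by 4.57 after 7.53. IRS1, the adaptor of the receptor, arose as higher by 2.62, and 1 of 17 members was called higher and 6 lower. HOX genes, which encode positional identity, had 4 of 37 called lower and 0 higher, among them HOXD10 at -5.10 and HOXA5, which arose at -2.87.

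Few genes of carbon metabolism passed the 5-fold threshold. Of 58 genes of the pyruvate dehydrogenase (PDH) complex, the TCA cycle and glycolysis 1 was called higher and 1 lower in mesenchymal cells, 3.45% beside the 4.51% of all genes. At an adjusted p below 0.05 alone, 29 of the 58 were higher and 18 lower, where 28.3% of all genes were in each direction. PDK1, a kinase that inactivates PDH, read 9.44, 9.55 and 9.36 in mesenchymal HCC827 and 6.83, 7.13 and 6.94 in mesenchymal A549. It remained higher in HCC827, by 2.48 (standard error 0.09, limma adjusted p = 4.27e-13) after 3.12. PDK4, another such kinase, read 3.59, 3.58 and 3.34 against 3.66, 3.31 and 3.86. Its arrays overlapped at low signal, and the difference was -0.11 (95% interval -0.57 to 0.36). PFKFB3, which makes an activator of glycolysis, was lower in mesenchymal HCC827 by 2.99, and HK2, a hexokinase, was higher by 1.63 after 4.14. Of 39 glutamine and amino acid genes 2 were called lower and 0 higher (5.13%), a share close to the 4.51% of all genes. They were SLC7A5, an amino acid transporter, at -2.63 and GLUD2, whose probe set may also read its near-identical copy GLUD1, at -2.63.

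**Figure D5:**
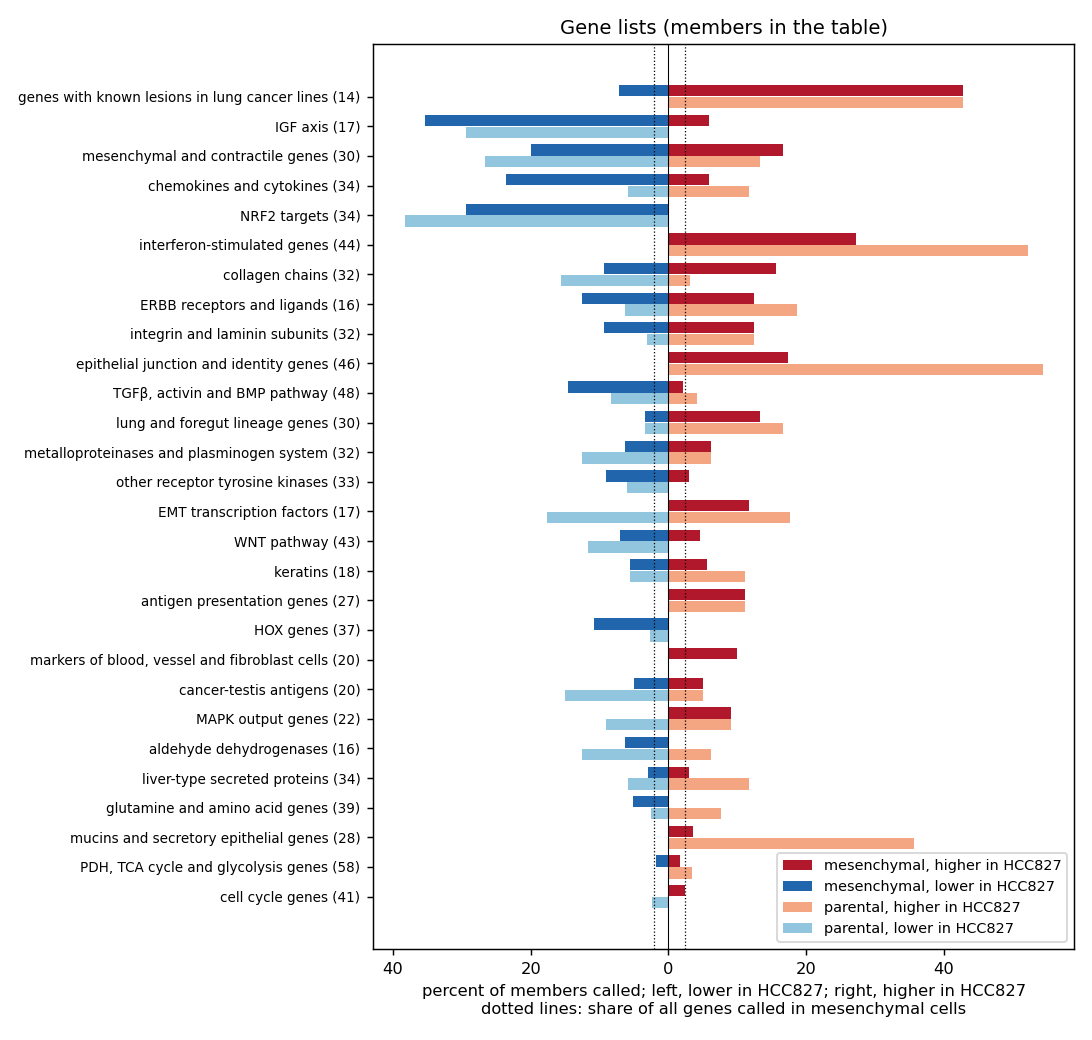
Percent of the members of each gene list called between HCC827 and A549, to the right when higher in HCC827 and to the left when lower, in mesenchymal (dark) and parental (light) cells; dotted lines give the share of all genes called in mesenchymal cells. The light bars of epithelial, mucin and interferon genes exceed the dark ones, and chemokines and cytokines have a longer dark bar on the left.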

How the data were processed

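RNA samples of 3 lines in 2 states, 3 for each, were hybridized to 18 Affymetrix human genome U133 Plus 2.0 arrays. The authors normalized the arrays with RMA, and the deposited table holds log2 values of 19849 genes with 1 probe set each. The rule that chose the probe set, the version of its annotation and the version of RMA were not given in the sources used here. No genome build is given for the table, so genes are reported without positions, other than the RefSeq promoters. Of its gene identifiers 19326 matched RefSeq (GRCh38.p14), 2479 symbols were brought up to date and 26 that had been written as dates were restored. Columns that belong to no sample numbered 0.

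Groups were taken from the sample titles. A single limma fit (version 3.58.1, R 4.3.3) over all 18 arrays and 6 groups, with no covariate, gave the difference between the lines in each state, its change between states and the change within each line. P-values were adjusted by Benjamini-Hochberg over all 19849 genes. The call needed more than a 5-fold change with an adjusted p below 1e-05, and the change between states at an adjusted p below 0.05. For the class of vanished or arisen differences the 95% interval in the other state had to lie within 2-fold. The number of arrays limits the precision. The procedure was run on simulated data of 19849 genes, with 200 genes changed 8-fold in each class. It recovered 199 arisen, 199 vanished and 200 remaining differences with 0 false calls. An 8-fold change lies above the 5-fold threshold. How the procedure sorts differences near the 5-fold and 2-fold limits was not tested.

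The genes named are those with the 5 largest differences in each direction overall and per class, up to 6 called members per list with any that arose, vanished or reversed, members that show a list did not move, and a set of anchor genes. Some genes that the rule names are not reported here. The comparison and the 29 gene lists, with 868 of 888 entries matched, were chosen with earlier results of these data known. Alternatives were other fold, interval and p thresholds, the methods' t-test, fewer arrays in the fit, other variance priors, a filter on dim probe sets, other scaling and leaving out each array.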

Additional observations from a re-analysis of the deposited data

Results flagged for a closer look

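The difference between HCC827 and A549 changed between the parental and the mesenchymal state in 8379 genes by the limma test of that change. Among them 5 genes were called in opposite directions in the 2 states. The change of the HCC827-minus-A549 difference from parental to mesenchymal cells was -7.93 for BHLHE41, -7.08 for BMP2 and -4.95 for PIK3AP1, which were higher in HCC827 before and lower after. It was 5.88 for QKI and 5.78 for ZEB2, which were lower before and higher after.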

How the results depend on the processing

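No paired analysis was possible because the labels give no replicate number that arrays of different groups share. A fold threshold of 2 gave 3243 genes called in mesenchymal and 3555 in parental cells, with 1834 remaining, 1195 vanished, 994 arisen and 74 reversed. A threshold of 10 gave 414 and 500, with 228, 64, 55 and 1 in the same classes and 337 undecided. An interval limit of 1.5-fold left 85 vanished and 65 arisen, and one of 3-fold 329 and 232. The methods' t-test at an adjusted p below 1e-05 called 2 genes in mesenchymal cells, both undecided, and 0 in parental cells, with 0 remaining, vanished, arisen or reversed. At an unadjusted p below 0.05 it called the same 895 mesenchymal genes as limma.

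Leaving out each array in turn gave 883 to 897 calls in mesenchymal and 989 to 1038 in parental cells, 7838 to 8254 changes between states, and 480 to 490 remaining, 168 to 192 vanished, 137 to 149 arisen, 592 to 626 undecided and 3 to 5 reversed differences. The 3 came without the second mesenchymal A549 array. KIF2C, the only called cell cycle gene, was at 2.30 and no longer called without the first mesenchymal A549 array. Centring the arrays gave 888 mesenchymal calls (876 shared), normalizing them again by quantiles 896 (878 shared). List medians changed sign under a scaling only for integrins and laminins (0.02, -0.03 centred), glutamine and amino acid genes (0.07, -0.01 by quantiles) and blood, vessel and fibroblast markers (-0.01, 0.05 by quantiles). No called difference or named gene reversed its direction under any of these alternatives. Low signal limits what can be seen where both lines are dim.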

Other observations

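Liver-type secreted proteins, which lung adenocarcinoma lines can produce, had 1 of 34 genes called higher and 1 lower in mesenchymal HCC827. That is 5.88%, close to the 4.51% of all genes. In parental cells 4 were higher and 2 lower, 17.6% beside 5.15% of all genes. SERPINA1, the antitrypsin, narrowed from 5.88 to 2.85 and was still called. C3, the central complement protein, was lower in mesenchymal HCC827 by 4.24. FGB, a fibrinogen chain, went from 2.36 to -0.16 and C5, another complement protein, from -3.90 to 0.20, and both differences vanished. Cancer-testis antigens, germ line genes that tumours express, had 1 of 20 called in each direction, DDX43 at 6.05 and PRAME at -3.17, and both had been there in parental cells at 6.21 and -3.0. Of 18 keratins KRT19 and KRT81 were called, and the difference of KRT20, an intestinal keratin, vanished from a parental 2.47. ALDH1A1 was the only one of 16 aldehyde dehydrogenases called in mesenchymal cells (6.25%, beside 4.51% of all genes).

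Mesenchymal NCI-H358 cells were compared in the same fit. They differed from mesenchymal A549 in 1157 genes (5.83%) and from mesenchymal HCC827 in 689 genes (3.47%). Their level was nearer to HCC827 in 349 of the 487 differences that remained, 102 of the 183 that vanished and 1 of the 5 reversed. The same held for 96 of the 144 that arose, 40 of the 71 higher and 56 of the 73 lower in HCC827. Among undecided differences it held for 228 of 348 called in parental cells and 187 of 259 called in mesenchymal cells. The share over all genes is not given here, so these counts show no trait of a class. They describe the levels and carry no test.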
